A study of Canis lupus familiaris with 15 samples.

Results

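The genes described here encode translation factors and aminoacyl-tRNA synthetases. They were chosen by symbol: names that begin with EIF or EEF and a digit, names made of 1 letter followed by ARS, ARS1 or ARS2, and EPRS1, without EIF3E, EIF3H and EEF1D. This gave 53 of the 5246 named genes measured, namely 34 factors and 19 synthetases, of which 13 serve the cytosol and 6 the mitochondria. The 53 genes were read by 80 probes, and 34 of them by 1 probe each. RNA came from 3 canine mammary tumour cell lines grown to near confluence: P114 (anaplastic carcinoma), CMT-U335 (primary osteosarcoma) and CMT-U229 (benign mixed tumour). Each of 15 cDNA arrays carried RNA from a pair of lines in 2 dyes, so that the 3 pairs had 5 arrays each and closed a loop. The labels call these 5 arrays biological replicates, whereas the design text gives dye swaps and 1 or more biological repeats, so p-values measure the spread between arrays, which may be partly technical. Each line stands alone for its tumour type, so tumour type and line cannot be told apart.

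The arrays give ratios between lines and no levels, so the absence of a marker could not be read from them. Among epithelial markers, 3 of 4 measured were higher and 1 lower in P114 than in CMT-U335, and 3 of 4 were higher in CMT-U229 than in CMT-U335. In P114 against CMT-U229, 2 of 4 were higher and 0 lower. Of 6 mesenchymal markers, 1 was higher and 2 lower in P114 when set against CMT-U335, 0 were higher and 4 lower in CMT-U229 when set against CMT-U335, and 3 were higher in P114 than in CMT-U229. Of 3 osteoblast markers, 2 were higher in P114 than in CMT-U335 and 0 lower, and 1 was higher in CMT-U229 than in CMT-U335 and 0 lower. In P114 against CMT-U229, 1 osteoblast marker was higher and 0 lower. Of 3 basal markers 1, MYLK, was called, higher in CMT-U229 than in either other line. The leukocyte markers (4 measured) and the endothelial markers (3 measured) had 0 calls in any pair with limma, and 0 at an unadjusted p under 0.05. The deposited table does not say which dye is the numerator of a ratio. It was read as Cy5, so every direction given here, those of the markers included, rests on that reading and is not settled. All of them would turn together if the numerator were Cy3.

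Translation starts when initiation factor eIF2 carries the initiator tRNA to the small ribosomal subunit, where the large eIF3 complex and EIF1 help to find the start codon. The eIF4 factors bind the cap of the mRNA and unwind its leader, and the eIF4E-binding proteins hold the cap-binding factor back until mTOR phosphorylates them. The elongation factor EEF1A1 then delivers charged tRNAs, which the synthetases load with their amino acids. Several cytosolic synthetases sit together in a multisynthetase complex, and many synthetase genes are known targets of ATF4, the transcription factor of the amino acid response. Proliferating tumour cells depend on all of these steps, and eIF4E activity in particular has long been studied in mammary cancer.

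Of the 53 genes, 17 passed the test in at least 1 pair: 9 in a single pair, 8 in 2 pairs and 0 in all 3. A call here means a limma p-value, adjusted by the Benjamini-Hochberg method over all 5246 genes, under 0.05. In P114 against CMT-U335, 15 were called, 5 higher in P114 and 10 lower. That is 28.3% of the group, beside 22.3% of all genes, of which 7.89% were higher and 14.4% lower. Of the 53 genes, 9 were called in CMT-U229 against CMT-U335, 6 higher in CMT-U229 and 3 lower, which is 17% beside 17.3% of all genes (8.77% higher and 8.58% lower). In P114 against CMT-U229 only EEF1E1 was called, lower in P114, beside 7.3% of all genes (3.32% higher and 3.98% lower). At an unadjusted p under 0.05 that pair had 0 of these genes higher and 7 lower, and a SAM-type test called 0 higher and 2 lower. The shares of calls were thus near those of all genes in both pairs with CMT-U335, and below that of all genes in the third pair. Among couples of arrays with opposite dye order, the only ones scored, some in both pairs with CMT-U229 looked like dye swaps of the same RNA. With these couples averaged, so that 3 values a pair remained, 5 calls were left for CMT-U229 over CMT-U335 (EIF3A, EIF3F, EIF4A2, EPRS1 and TARS1) and 0 for P114 over CMT-U229. No coupling stood out in P114 against CMT-U335: the best left a median share of 0.426 of a gene's variation within couples, beside 0.504 for the next. Averaging its couples left 6 calls (EEF1A1, EIF2B3, EIF3F, EIF4A2, EIF5B and TARS1). Changes were small: TARS1 alone was called with a ratio of at least 2-fold. The median log2 ratio of the 53 genes was -0.07 in P114 against CMT-U335, -0.05 in P114 against CMT-U229 and 0.02 in CMT-U229 against CMT-U335, beside -0.02, -0.01 and -0.01 for all genes. Taken array by array, the median of the 53 genes had SDs of 0.12, 0.15 and 0.17 in these pairs, wider than the medians themselves. For all genes the SDs were 0.03, 0.03 and 0.04. In P114 against CMT-U335 it was -0.26 on replicate 5 and between -0.10 and 0.05 on the other arrays.

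**Figure D1:**
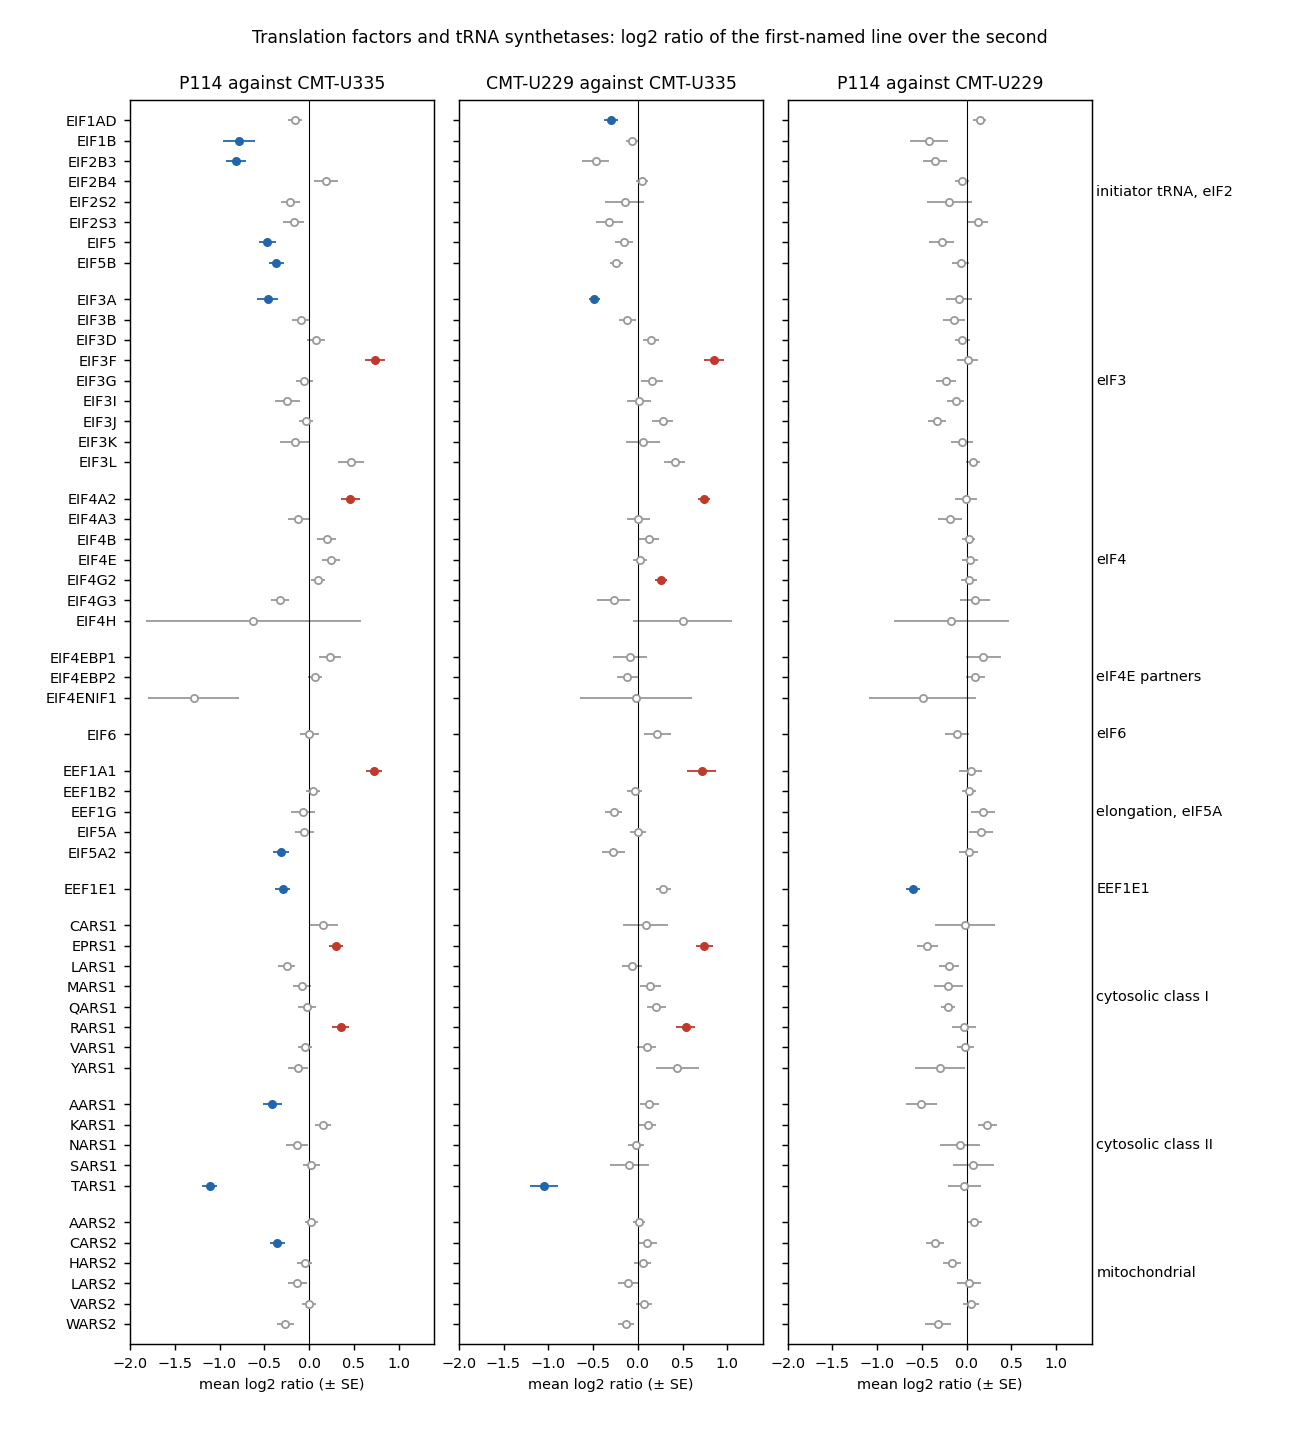
Mean log2 ratio (x axis, first-named line over the second) of each of the 53 genes (y axis, grouped by role) in the 3 pairs of lines, with the moderated standard error from limma (5 arrays). Red points were called higher in the first line, blue points lower, and open grey points were not called. In the pairs with CMT-U335, 15 and 9 genes were called, 28.3% and 17% beside 22.3% and 17.3% of all genes. In P114 against CMT-U229 there was 1 call, 1.89% beside 7.3% of all genes.

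Calls of the same direction in both pairs that hold a line set that line apart. CMT-U335 was set apart by 7 genes, 13.2% of the group beside 10.2% of all genes. EIF3A and TARS1 were higher in CMT-U335, and EEF1A1, EIF3F, EIF4A2, EPRS1 and RARS1 were lower. P114 was set apart by EEF1E1 alone, 1.89% beside 3.98% of all genes, and CMT-U229 by none, beside 2.78%. This depended on the fit. With the spread shared over all 15 arrays, CARS2 was also lower in both pairs of P114, and EEF1E1 and EPRS1 were higher in both pairs of CMT-U229. A loop fit, which adds the indirect ratios, added AARS1, EIF1B, EIF2B3 and EIF5 to the genes lower in P114 and EIF3J to those higher in CMT-U229. For CMT-U335, the fit with shared spread added EIF2B3 and EIF5B to the genes higher there and EIF3L to those lower. The loop fit added these and also EIF1AD and EIF5A2 as higher, so EIF2B3 set both P114 and CMT-U335 apart in it. With the replicate number as a block, EIF2B3 was added for CMT-U335 and RARS1 was lost. The pairs share the RNA of a line, so their values are given side by side and one is no check of the other. The direct ratio of P114 over CMT-U335 was also set against the sum of the other 2 ratios over all 15 arrays. By limma 0 of the 53 genes were called and 0 had an unadjusted p under 0.05, beside 0% of all genes called and 17 of 5246 at an unadjusted p under 0.05. Chance alone would give about 262 such genes, so this test was too conservative to find departures, and its 0 calls say nothing for or against single genes.

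Among the 8 genes of initiator tRNA delivery, eIF2 exchange, start codon choice and subunit joining, 4 were lower in P114 and 0 higher when set against CMT-U335. That is 50% of them, beside 22.3% of all genes called in this pair (14.4% lower and 7.89% higher). The difference was not tested. EIF1AD alone was called lower in CMT-U229 against CMT-U335, and in P114 against CMT-U229 0 were called, with 1 lower at an unadjusted p under 0.05. EIF2B3 encodes the gamma subunit of eIF2B, the factor that exchanges the nucleotide on eIF2. Its log2 ratios of P114 over CMT-U335 were -0.81, -0.88, -0.67, -0.51 and -1.22 on replicates 1 to 5. All arrays thus lay on the same side, replicate 5 the farthest from 0. The mean was -0.82 ± 0.11 (moderated SE from limma, n = 5; limma adjusted p = 0.00193), and the call held with each array left out. Every ± in the text is this SE, which draws a gene's spread between arrays towards that of all genes. In CMT-U229 against CMT-U335 the mean of EIF2B3 was -0.47 ± 0.15, with replicates 2 and 3 at -1.04 and -0.78 and the others between -0.31 and -0.08. It was not called there (limma adjusted p = 0.0831). The limma fit over all 15 arrays called it in that pair (adjusted p = 0.0319), as did the loop fit (adjusted p = 0.00525). EIF2B4, the delta subunit of the same factor, had 0.19 ± 0.14 in P114 against CMT-U335 (limma adjusted p = 0.386). Replicate 5 alone was negative for it, and without replicate 5 it was called higher at 0.35 (limma adjusted p = 0.0334).

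EIF1B, a close relative of the start codon factor EIF1, gave -0.88, 0.09, -1.22, -0.88 and -1.02 in P114 against CMT-U335. Replicate 2 stood apart from the rest, which were all low. The mean was -0.78 ± 0.18 (limma adjusted p = 0.0176), and the call was lost without replicate 1, 3, 4 or 5 (adjusted p from 0.0526 to 0.0619). Over the arrays of P114 against CMT-U229, EIF1B spread from -1.18 to 0.23 and was not called, and in CMT-U229 against CMT-U335 it lay between -0.15 and 0.08. EIF5, which triggers GTP hydrolysis by eIF2 once the start codon is found, had -0.28, -0.23, -0.43, -0.75 and -0.62 in P114 against CMT-U335. Every array was negative, with a mean of -0.46 ± 0.10 (limma adjusted p = 0.0134) that was called with each array left out. EIF5B, the GTPase that joins the ribosomal subunits, was lower in the same pair at -0.37 ± 0.08 (limma adjusted p = 0.0168), a call lost without replicate 2, 3 or 4 (adjusted p from 0.0531 to 0.0623). EIF1AD, a protein with an EIF1A-type domain, was the gene of this group lower in CMT-U229 than in CMT-U335, at -0.30 ± 0.08 (limma adjusted p = 0.0382). That call was lost without replicate 2, 3, 4 or 5 (adjusted p from 0.0778 to 0.142).

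Of 9 subunits of eIF3, the scaffold of the initiation complex, EIF3F moved one way and EIF3A the other. In each pair with CMT-U335, 22.2% of the subunits were called, beside 22.3% and 17.3% of all genes. EIF3F, a regulatory subunit, had log2 ratios of 0.78, 0.96, 0.60, 1.01 and 0.33 for P114 over CMT-U335. For CMT-U229 over CMT-U335 they were 1.03, 0.47, 0.73, 0.79 and 1.22. All 10 arrays with CMT-U335 were thus positive, whereas P114 against CMT-U229 lay on both sides of 0, from -0.43 to 0.37. The means were 0.74 ± 0.11 (limma adjusted p = 0.00353), 0.85 ± 0.11 (limma adjusted p = 0.00305) and 0.01 ± 0.12, and both calls held with each array left out and with couples of arrays averaged.

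EIF3A, the largest subunit of the complex, had -0.24, -0.97, -0.35, -0.30 and -0.46 for P114 over CMT-U335. Its values for CMT-U229 over CMT-U335 were -0.45, -0.46, -0.41, -0.54 and -0.58. The second set was the tighter one, since replicate 2 stood far below the rest in the first. The means were -0.46 ± 0.12 (limma adjusted p = 0.0265) and -0.49 ± 0.06 (limma adjusted p = 0.00280). The first call was lost without replicate 3, 4 or 5 (adjusted p from 0.0510 to 0.0685), and the second held with each array left out. P114 against CMT-U229 gave -0.09 ± 0.15, with arrays on both sides of 0. EIF3L came near the threshold in both pairs with CMT-U335, at 0.47 ± 0.14 (limma adjusted p = 0.0547) and 0.41 ± 0.12 (limma adjusted p = 0.0573). It was called without replicate 5 in P114 against CMT-U335 (0.63, adjusted p = 0.00827) and without replicate 2 in CMT-U229 against CMT-U335 (0.51, adjusted p = 0.0426). The limma fit over all 15 arrays called EIF3L in both pairs (adjusted p = 0.0108 and 0.0287), as did a SAM-type test. The other 6 subunits measured, EIF3B, EIF3D, EIF3G, EIF3I, EIF3J and EIF3K, were not called in any pair, and their means lay between -0.33 and 0.28.

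Among the 7 factors of cap binding and unwinding, 1 was higher in P114 and 2 in CMT-U229 than in CMT-U335, and 0 were lower. That is 14.3% and 28.6% of these factors, beside 22.3% and 17.3% of all genes. EIF4A2 encodes a helicase that opens the mRNA leader. It had 0.38, 0.83, 0.30, 0.23 and 0.58 for P114 over CMT-U335, and 0.86, 0.66, 0.67, 0.72 and 0.80 for CMT-U229 over CMT-U335. All arrays were positive in both pairs, and those with CMT-U229 were the more even. The means were 0.46 ± 0.10 (limma adjusted p = 0.0163) and 0.74 ± 0.07 (limma adjusted p = 0.000680), beside -0.01 ± 0.12 for P114 over CMT-U229. Without replicate 5 the first was no longer called (0.43, adjusted p = 0.0532), while the second held with each array left out. EIF4A3, the related helicase of the exon junction complex, had means of -0.12, 0.00 and -0.19 in P114 against CMT-U335, CMT-U229 against CMT-U335 and P114 against CMT-U229, and no call.

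EIF4G2, a relative of the cap-complex scaffold that does not bind eIF4E, was higher in CMT-U229 than in CMT-U335 at 0.25 ± 0.07 (limma adjusted p = 0.0398). The call was lost without any 1 of the 5 arrays (adjusted p from 0.0629 to 0.136). Its relative EIF4G3 had -0.27 ± 0.18 there and -0.32 ± 0.10 in P114 against CMT-U335, and was not called in either. EIF4E itself, the cap-binding protein, had 0.24 ± 0.10 (limma adjusted p = 0.143) in P114 against CMT-U335, and 0.02 ± 0.08 and 0.04 ± 0.09 in CMT-U229 against CMT-U335 and P114 against CMT-U229. EIF4H, a cofactor of the helicase read by 1 probe, spread from -6.93 to 1.89 between arrays of P114 against CMT-U335 and could not be compared.

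None of the 3 eIF4E partners was called in any pair by limma, and at an unadjusted p under 0.05 only EIF4ENIF1 was, in P114 against CMT-U335. EIF4ENIF1, which carries eIF4E into the nucleus, had the largest mean ratio of the 53 genes there, -1.29 ± 0.51, but arrays from -3.31 to 0.19 (limma adjusted p = 0.121). A SAM-type test called it lower in that pair. EIF4EBP1 and EIF4EBP2, the repressors that mTOR releases, had 0.23 ± 0.12 and 0.07 ± 0.08 in P114 against CMT-U335. The EIF4EBP1 value averages 2 probes on opposite sides of 0 (0.88 and -0.42), the first called higher on its own. EIF6, which keeps ribosomal subunits apart, was close to 0 in that pair (limma adjusted p = 0.987), and had 0.22 ± 0.15 in CMT-U229 against CMT-U335 and -0.11 ± 0.13 in P114 against CMT-U229.

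Of 5 elongation and hypusine factors, EEF1A1 was higher in both P114 and CMT-U229 than in CMT-U335. Its log2 ratios were 0.85, 0.51, 0.96, 0.66 and 0.66 for P114 over CMT-U335, and 0.61, 0.27, 0.38, 0.99 and 1.33 for CMT-U229 over CMT-U335. No array of either pair was negative, and the second pair was the more spread. The means were 0.73 ± 0.09 (limma adjusted p = 0.00126) and 0.71 ± 0.16 (limma adjusted p = 0.0232). The first call held with each array left out, and the second was lost without replicate 4 or 5 (adjusted p of 0.0527 to 0.0686, means of 0.65 and 0.56). P114 over CMT-U229 gave 0.04 ± 0.13. EEF1B2 and EEF1G, subunits of the factor that recharges EEF1A1, did not share its ratios: they had 0.04 ± 0.08 and -0.07 ± 0.14 in P114 against CMT-U335, and -0.04 ± 0.09 and -0.27 ± 0.10 in CMT-U229 against CMT-U335, none called.

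EIF5A2 and EIF5A, paralogues that carry the modified amino acid hypusine, were measured side by side. In P114 against CMT-U335, EIF5A2 was lower at -0.31 ± 0.09 (limma adjusted p = 0.0485), a call lost without any 1 of the 5 arrays (adjusted p from 0.0524 to 0.118), and EIF5A had -0.05 ± 0.11 and was not called. The difference between the paralogues was not tested.

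EEF1E1, despite its name, is a scaffold of the multisynthetase complex, and was the gene that set P114 apart. For P114 over CMT-U229 its log2 ratios were -0.61, -0.59, -0.52, -0.51 and -0.77, and for P114 over CMT-U335 they were -0.14, -0.52, -0.25, -0.15 and -0.41. Every array showed P114 as the lower line, and the first set was the tighter. The means were -0.60 ± 0.07 (limma adjusted p = 0.00450) and -0.29 ± 0.09 (limma adjusted p = 0.0454), and CMT-U229 over CMT-U335 had 0.29 ± 0.08 (limma adjusted p = 0.0527). The call against CMT-U229 held with each array left out, but not with apparent dye swaps averaged (-0.59, adjusted p = 0.0568). The call against CMT-U335 was lost without any 1 of the 5 arrays (adjusted p from 0.0590 to 0.126).

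**Figure D2:**
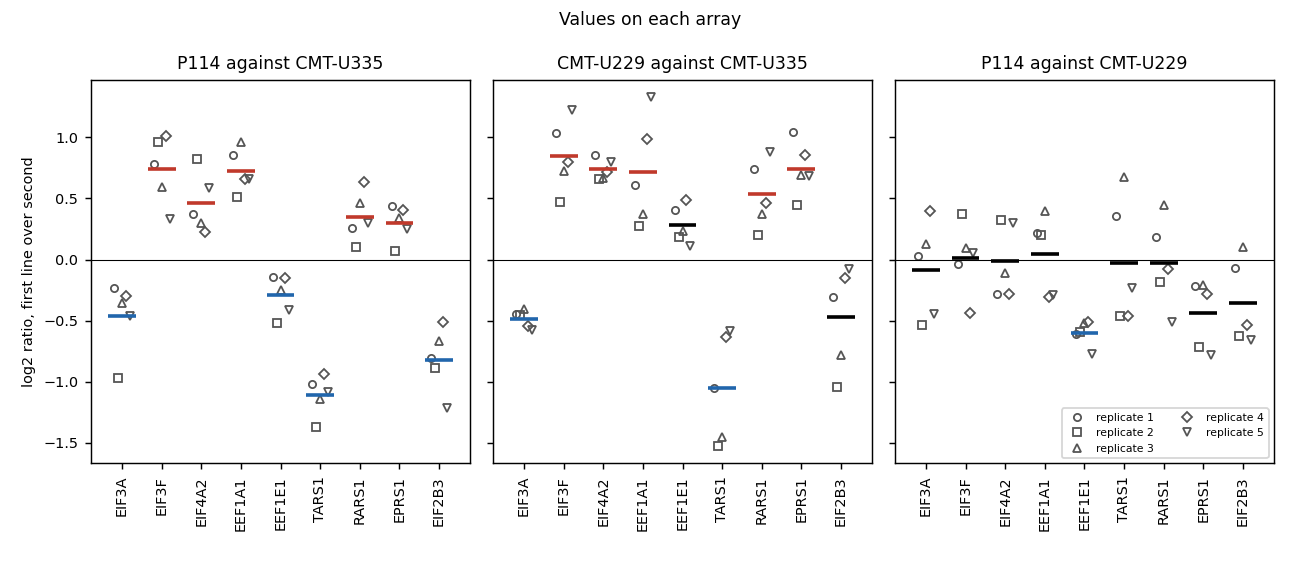
Log2 ratio (y axis, first-named line over the second) on each of the 5 arrays of a pair for 9 genes (x axis), with a marker for each replicate and a bar at the mean, red where called higher, blue where called lower and black where not called. In both pairs with CMT-U335 all arrays of EIF3F, EIF4A2 and EEF1A1 lie above 0 and all arrays of TARS1 and EIF3A below it.

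The synthetases moved in both directions. Of the 13 cytosolic enzymes, 2 were higher and 2 lower in P114 than in CMT-U335, and 2 were higher and 1 lower in CMT-U229 than in CMT-U335. None (0) was called in P114 against CMT-U229, with 0 higher and 3 lower at an unadjusted p under 0.05. The calls were 30.8% of the 13 enzymes in P114 against CMT-U335 and 23.1% in CMT-U229 against CMT-U335. Of all genes, 22.3% and 17.3% were called there, and 7.3% in P114 against CMT-U229. TARS1, which charges tRNA with threonine, had log2 ratios of -1.02, -1.37, -1.14, -0.94 and -1.08 for P114 over CMT-U335. For CMT-U229 over CMT-U335 they were -1.05, -1.52, -1.45, -0.64 and -0.58. All 10 arrays showed TARS1 higher in CMT-U335, while its arrays of P114 over CMT-U229 spread from -0.46 to 0.68. The means were -1.11 ± 0.08 (2.16-fold, limma adjusted p = 0.000209), -1.05 ± 0.16 (2.07-fold, limma adjusted p = 0.00490) and -0.02 ± 0.18, and both calls held with each array left out and with couples of arrays averaged.

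EPRS1, the joined glutamyl- and prolyl-tRNA synthetase of the multisynthetase complex, went the other way. It had 0.43, 0.07, 0.34, 0.41 and 0.25 for P114 over CMT-U335, and 1.04, 0.45, 0.69, 0.86 and 0.68 for CMT-U229 over CMT-U335. All arrays were positive, those of CMT-U229 the more so. The means were 0.30 ± 0.08 (limma adjusted p = 0.0342) and 0.74 ± 0.10 (limma adjusted p = 0.00249). The first was lost without replicate 1, 3, 4 or 5 (adjusted p from 0.0715 to 0.110), and the second held with each array left out. In P114 over CMT-U229 all arrays of EPRS1 were negative, from -0.78 to -0.20, with a mean of -0.44 ± 0.12 (limma adjusted p = 0.0714). A fit that shares its spread over all 15 arrays called that ratio as well (adjusted p = 0.00770), as did a SAM-type test.

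RARS1, the arginyl-tRNA synthetase of the same complex, had 0.26, 0.10, 0.46, 0.63 and 0.30 for P114 over CMT-U335, and 0.74, 0.20, 0.37, 0.46 and 0.88 for CMT-U229 over CMT-U335. All of its arrays with CMT-U335 were positive, replicate 2 the lowest in either pair. The means were 0.35 ± 0.09 (limma adjusted p = 0.0319) and 0.53 ± 0.11 (limma adjusted p = 0.0178), beside -0.03 ± 0.14 for P114 over CMT-U229. The first was lost without replicate 1, 3, 4 or 5 (adjusted p from 0.0605 to 0.102) and the second without replicate 5 (0.44, adjusted p = 0.0561). Of the 7 members of the multisynthetase complex measured, EPRS1 and RARS1 were higher in both pairs with CMT-U335 and EEF1E1 lower in both pairs with P114. LARS1, MARS1, QARS1 and KARS1 were not called in any pair. Of the 7 cytosolic synthetases outside the complex, 0 were higher in the pairs with CMT-U335. TARS1 and AARS1 were the lower ones in P114, and TARS1 in CMT-U229. In the pairs with CMT-U335, 42.9% and 28.6% of the complex and 28.6% and 14.3% of the enzymes outside it were called. For all genes the shares were 22.3% and 17.3%.

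AARS1, the alanyl-tRNA synthetase, had -0.43, -0.74, -0.23, -0.09 and -0.57 for P114 over CMT-U335. Every array was negative, with a mean of -0.41 ± 0.11 (limma adjusted p = 0.0301). The call was lost without replicate 1, 2, 3 or 5 (adjusted p from 0.0516 to 0.0918). For P114 over CMT-U229 the mean was -0.51 ± 0.17, with arrays from -0.94 to 0.08 (limma adjusted p = 0.158). The limma fit over all 15 arrays called it there (adjusted p = 0.0333), while it put AARS1 in P114 against CMT-U335 at an adjusted p of 0.0501. Of 6 mitochondrial synthetases, which charge tRNAs for the proteins made inside the organelle, CARS2 was the only one called, lower in P114 than in CMT-U335 at -0.36 ± 0.08 (limma adjusted p = 0.0198). The call was lost without replicate 1, 3 or 5 (adjusted p from 0.0604 to 0.0677). CARS2 had -0.35 ± 0.10 in P114 against CMT-U229 (limma adjusted p = 0.0813, and 0.0247 in the fit over all 15 arrays) and 0.10 ± 0.11 in CMT-U229 against CMT-U335. The cytosolic and mitochondrial enzymes for an amino acid could be set side by side in P114 against CMT-U335. AARS1 had -0.41 and AARS2 0.03, CARS1 had 0.16 and CARS2 -0.36, LARS1 had -0.25 and LARS2 -0.13, and VARS1 had -0.04 and VARS2 close to 0. The differences within these enzyme pairs were not tested.

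The cytosolic synthetases spread widely between arrays of P114 against CMT-U229, a pattern that was noticed after the values were seen. The median over these genes of the SD between 5 arrays was 0.435 in P114 against CMT-U229, beside 0.297 for the 34 factors and 0.227 for all genes. For CMT-U229 against CMT-U335 it was 0.277, no wider than the 0.291 of the factors, with 0.211 for all genes. The value for P114 against CMT-U335 was 0.215, beside 0.259 for the factors and 0.217 for all genes. Above the 90th percentile of the SD of all genes lay 5 of 13 (CARS1, NARS1, SARS1, TARS1 and YARS1) in P114 against CMT-U229, 3 of 13 (CARS1, SARS1 and YARS1) in CMT-U229 against CMT-U335, and 0 of 13 in P114 against CMT-U335. Of the 6 mitochondrial synthetases 0 did so in any pair.

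The spread was shared between the genes. In P114 against CMT-U229 the median of the 13 cytosolic enzymes was 0.14, -0.27, 0.36, -0.43 and -0.51 on replicates 1 to 5, and 9, 2, 11, 1 and 1 of them were above 0. The medians were 0.18, -0.11, -0.13, 0.14 and 0.37 in CMT-U229 against CMT-U335, with 10, 5, 6, 9 and 12 above 0. In P114 against CMT-U335 they stayed between -0.17 and 0.18. The high arrays of P114 against CMT-U229, replicates 1 and 3, carried their dyes in opposite order, as did replicates 2 and 3, the low arrays of CMT-U229 against CMT-U335. These couples are also among those that look like dye swaps of the same RNA over genes with a wide spread (replicates 1 and 3, and 2 and 5, of P114 against CMT-U229, and 2 and 3, and 4 and 5, of CMT-U229 against CMT-U335). Only couples with opposite dye order were scored, so the opposite order of such couples was set beforehand.

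CARS1, the cysteinyl-tRNA synthetase, ran at 0.96, -0.31, 1.08, -0.95 and -0.86 in P114 against CMT-U229, with a mean of -0.01 ± 0.33. SARS1, for serine, ran at 0.70, -0.25, 0.87, -0.54 and -0.40, and YARS1, for tyrosine, at 0.47, -0.27, 0.47, -1.43 and -0.74. Replicates 1 and 3 were positive and the other three negative for each of these enzymes. Among the factors, EIF2S2, the beta subunit of eIF2, gave 0.55, -0.60, 0.63, -0.70 and -0.87, and EIF4EBP1 gave 0.70, 0.20, 0.74, -0.52 and -0.19. Both were highest on replicates 1 and 3 too. Where arrays disagree in this way, a missing call does not show that the lines have equal amounts of the RNA.

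In the list of amino acid response genes, many of them targets of ATF4, several genes ran high and low on the same arrays. Its 10 measured genes had medians of 0.14, -0.08, 0.30, -0.77 and -0.44 on replicates 1 to 5 of P114 against CMT-U229. ASNS, the asparagine synthetase, ran at 0.73, -0.59, 0.96, -2.26 and -0.79, and ATF4 itself at 0.36, -0.53, 0.48, -0.98 and -0.64. Other genes of the list did not follow this order: PSAT1, an enzyme of serine synthesis, ran at 0.83, 2.96, -1.69, -0.44 and -1.26, highest on replicate 2 and lowest on replicate 3, and NUPR1 was highest on replicate 2 at 0.65. Replicates 2 and 3 of CMT-U229 against CMT-U335 had medians of -0.55 and -0.44, and those of the other arrays lay between -0.00047 and 0.22. By the medians, replicates 4 and 5 of P114 against CMT-U229 and replicates 2 and 3 of CMT-U229 against CMT-U335 were the lowest for both the synthetases and this list. The part of the amino acid response in the spread of the synthetases was not tested.

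**Figure D3:**
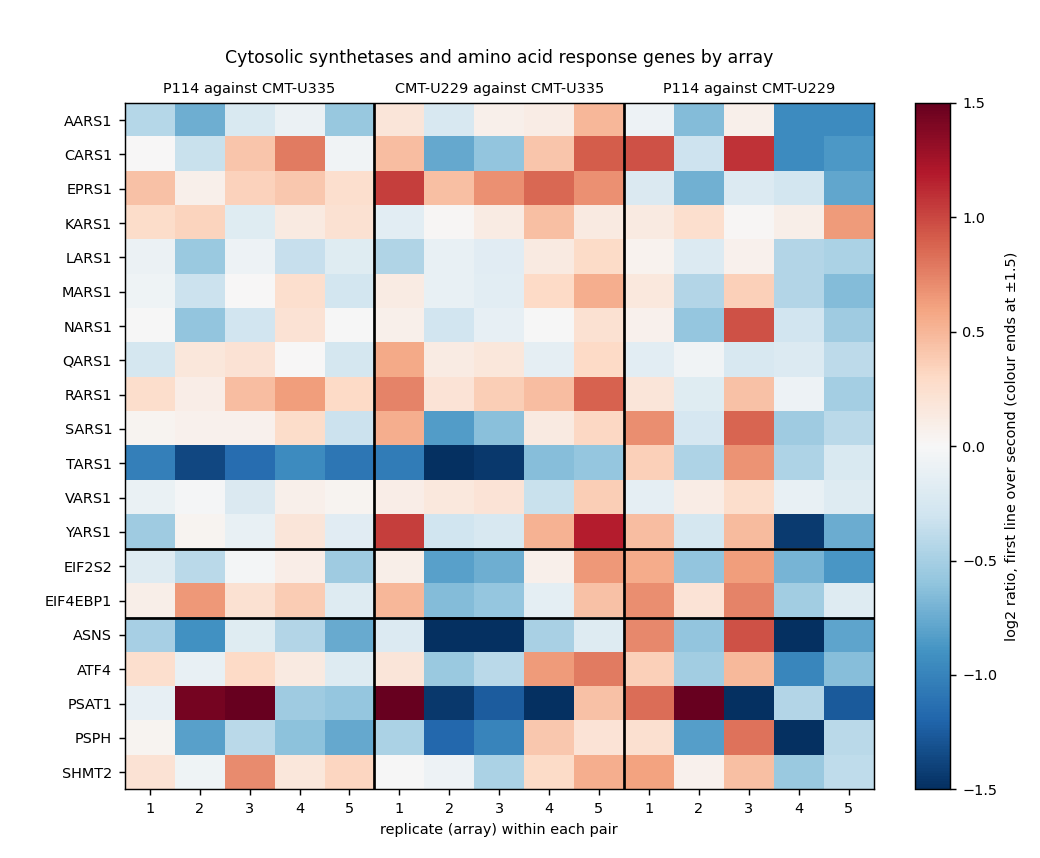
Log2 ratio (colour, red where the first-named line is higher, ending at 1.5 in either direction) of the 13 cytosolic synthetases, of EIF2S2 and EIF4EBP1, and of 5 amino acid response genes (rows) on each of the 15 arrays (columns, by pair and replicate). The 5 genes are ASNS, ATF4, PSAT1, PSPH and SHMT2. That list has 10 measured genes, and the rest, NUPR1 among them, are not shown. In P114 against CMT-U229 most rows are red on replicates 1 and 3 and blue on replicates 4 and 5, whereas TARS1 is blue on all 10 arrays with CMT-U335.

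Where a gene had several probes they could be compared with each other. All 4 probes of EIF3F were positive in both pairs with CMT-U335, from 0.55 to 0.92 for P114 and from 0.57 to 1.03 for CMT-U229, and 3 and 4 of them were called on their own. Both probes of EIF4A2 were positive (0.51 and 0.42 for P114, 0.59 and 0.89 for CMT-U229), and both probes of EIF3A negative (-0.48 and -0.44, -0.60 and -0.37). For P114 over CMT-U335 neither EIF3A probe was called on its own (limma adjusted p = 0.0613 and 0.0651 over probes), and of the EIF4A2 probes only the first was. Some genes had probes on opposite sides of 0, such as EEF1B2 with -0.13 and 0.22 in P114 against CMT-U335. For EIF4EBP1 the probes of that pair gave 0.88 ± 0.12 (called on its own, limma adjusted p = 0.00589 over probes) and -0.42 ± 0.22. Their mean of 0.23 therefore stands for neither probe. For AARS1 the second probe was called lower in P114 than in CMT-U229 at -0.63 ± 0.11 (limma adjusted p = 0.0342) and higher in CMT-U229 than in CMT-U335 at 0.42 ± 0.09 (limma adjusted p = 0.0337), whereas the first gave -0.38 ± 0.25 and -0.16 ± 0.18. The genes AARS1, CARS2 and EIF5B were called in P114 against CMT-U335. There the first probe of each was called on its own (-0.56, -0.44 and -0.46) and the second was not (-0.26, -0.27 and -0.27). No gene of the 53 had probes called in opposite directions in a pair. Which paralogue or transcript a cDNA probe binds was not tested.

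**Figure D4:**
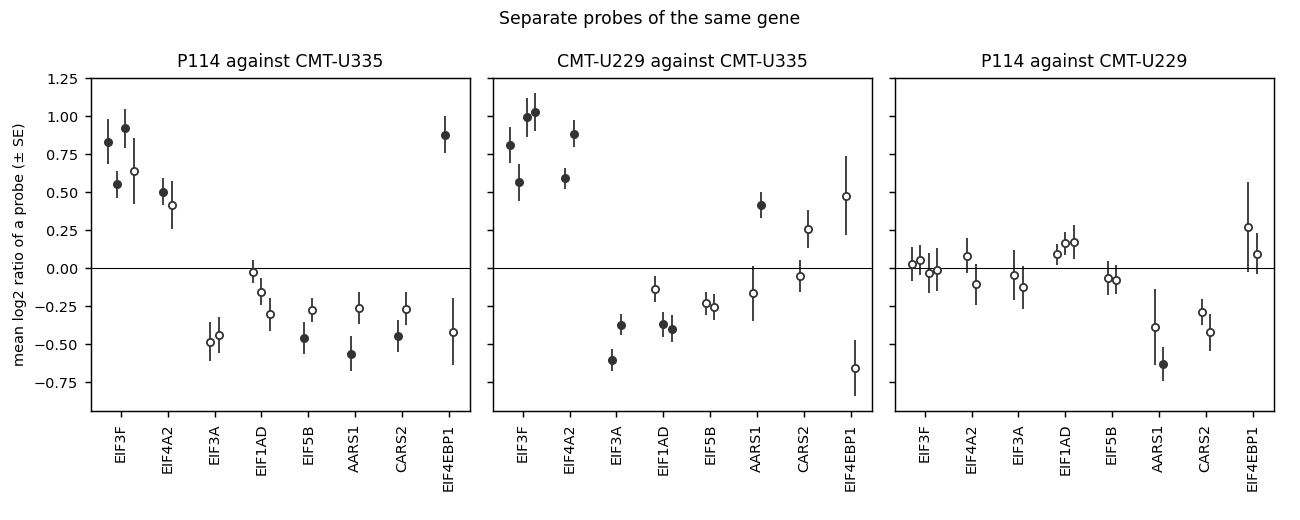
Mean log2 ratio (y axis, first-named line over the second, with the moderated standard error from limma, 5 arrays) of each probe of 8 genes with several probes (x axis), filled where the probe was called on its own and open where it was not. The 4 probes of EIF3F lie together above 0 in both pairs with CMT-U335, and the 2 probes of EIF4EBP1 lie on opposite sides of 0 there.

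Other genes of the translation pathways were followed through lists. Of 14 genes of termination, recycling and mRNA binding, 3 were higher and 1 lower in P114 than in CMT-U335, the same counts held for CMT-U229 against CMT-U335, and 0 were called in P114 against CMT-U229 (1 higher and 2 lower at an unadjusted p under 0.05). TPT1, a growth-related protein, had 1.51 ± 0.12 (limma adjusted p = 0.000210) and 1.59 ± 0.14 (limma adjusted p = 0.000680) in the pairs with CMT-U335. PABPC1, the poly(A)-binding protein, had 1.20 ± 0.10 (limma adjusted p = 0.000297) and 0.83 ± 0.09 (limma adjusted p = 0.00128). TPT1, PABPC1 and EEF1A1 are known to share a pyrimidine-rich start of the mRNA through which mTOR sets their translation. DHX29, a helicase that works with eIF3, was lower in P114 than in CMT-U335 at -0.66 ± 0.08 (limma adjusted p = 0.00105). Calls made 28.6% of this list in each pair with CMT-U335, beside 22.3% and 17.3% of all genes.

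In the mTOR list of 11 genes, 2 were higher and 0 lower in P114 than in CMT-U335, 3 were higher and 0 lower in CMT-U229 than in CMT-U335, and 0 were called in P114 against CMT-U229 (1 higher and 2 lower at an unadjusted p under 0.05). RHEB, the small GTPase that activates mTOR, had 0.97 ± 0.10 (limma adjusted p = 0.000754) and 0.70 ± 0.07 (limma adjusted p = 0.000767) in the pairs with CMT-U335, and LAMTOR3, part of its lysosomal anchor, 0.88 ± 0.09 (limma adjusted p = 0.000575) and 0.62 ± 0.15 (limma adjusted p = 0.0297). MTOR itself was not called in any pair. Calls made 18.2% and 27.3% of the mTOR list in the pairs with CMT-U335, beside 22.3% and 17.3% of all genes. In the amino acid response list of 10, 1 was higher and 3 lower in P114 than in CMT-U335, 0 higher and 1 lower in P114 than in CMT-U229, and 1 higher and 1 lower in CMT-U229 than in CMT-U335. ALDH1L2, a mitochondrial folate enzyme, was lower in P114 in both of its pairs (-2.93 ± 0.15 and -2.12 ± 0.12, limma adjusted p = 3.45e-05 and 0.000172), and NUPR1 was higher in P114 than in CMT-U335 at 0.95 ± 0.14 (limma adjusted p = 0.00285). ASNS was lower there at -0.55 ± 0.11 (limma adjusted p = 0.0120). Of the amino acid response list, 40% was called in P114 against CMT-U335, 10% in P114 against CMT-U229 and 20% in CMT-U229 against CMT-U335. For all genes these shares were 22.3%, 7.3% and 17.3%.

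Among 9 partners of the synthetases, FARSB, the beta chain of the phenylalanyl enzyme, was the only gene called in P114 against CMT-U335, lower at -0.36 ± 0.08 (limma adjusted p = 0.0155). In CMT-U229 against CMT-U335, DTD1, which removes D-amino acids from tRNA, was higher at 0.37 ± 0.09 (limma adjusted p = 0.0362) and ELAC2, a tRNA-trimming nuclease, lower at -0.39 ± 0.09 (limma adjusted p = 0.0294). None was called in P114 against CMT-U229, also at an unadjusted p under 0.05 (0 of 9). The calls were 11.1% and 22.2% of the partners in the pairs with CMT-U335, beside 22.3% and 17.3% of all genes. Of 7 genes of hypusine and polyamine synthesis, 2 were higher and 1 lower in P114 than in CMT-U335, 3 higher and 0 lower in CMT-U229 than in CMT-U335, and 0 called in P114 against CMT-U229 (0 higher and 2 lower at an unadjusted p under 0.05). Of these 7 genes 42.9% were called in each pair with CMT-U335, beside 22.3% and 17.3% of all genes. SAT1, which breaks polyamines down, was higher in CMT-U229 than in CMT-U335 at 0.90 ± 0.15 (limma adjusted p = 0.00723). ODC1, the first enzyme of polyamine synthesis, was lower in P114 than in CMT-U335 at -0.54 ± 0.13 (limma adjusted p = 0.0245).

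Markers of mitosis and ribosomal protein genes had most of their calls in the pairs with CMT-U335, where more of all genes were called too. Of all genes, 22.3% were called in P114 against CMT-U335, 17.3% in CMT-U229 against CMT-U335 and 7.3% in P114 against CMT-U229. For the ribosomal protein genes these shares were 29.8%, 29.8% and 3.51%. All 4 measured mitosis genes (BIRC5, BUB3, CCNB2 and FOXM1) were called lower for P114 over CMT-U335, from -1.68 to -0.76, and 2 of 4 were lower in CMT-U229 than in CMT-U335, whereas 0 were called in P114 against CMT-U229 (0 at an unadjusted p under 0.05). Of 57 cytosolic ribosomal protein genes, 16 were higher and 1 lower in P114 than in CMT-U335, 15 higher and 2 lower in CMT-U229 than in CMT-U335, and 1 higher and 1 lower in P114 than in CMT-U229. In P114 against CMT-U335 the median of the ribosomal protein genes was -0.35 on replicate 5 and between 0.17 and 0.47 on the other arrays. The part of either list in the ratios of the translation genes was not tested.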

How the data were processed

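Total RNA was amplified by T7 transcription and labelled with Cy3 or Cy5, per the labels' protocols. The deposited values are ratios of both dyes that the authors had normalized and put on a log scale, as the design text states. How they were normalized is not given in the sources used here. Their log base, also unstated, was taken to be 2, so the deposited values are called log2 ratios. Array medians lay between -0.00671 and 0.0134. Intensities were not used. Precision is limited by the number of arrays.

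Of 22176 probes, 7694 had a symbol, updated for 7340 by Entrez identifier from RefSeq (assembly UU_Cfam_GSD_1.0). Arrays were turned by their dyes and probes of a gene averaged. No gene of the 53 had a missing value. The 5 arrays of a pair entered their own two-sided fit in limma 3.58.1 (lmFit, eBayes; R 4.3.3), in place of the study's SAM. Scripts were tested on simulated data.

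The 53 genes, the lists and the tests were chosen with earlier results of these data known. Values were named for every gene of the 53 called in a pair, the leading gene of a role with no call, paralogue pairs and up to 3 called genes of each other list. Values are given array by array for the genes called in 2 pairs and the next 4 by size. CARS1, SARS1, YARS1, EIF2S2, EIF4EBP1, EIF2B4, EIF3L, EIF4E, EIF4H, EIF3J, EEF1B2, ATF4, PSAT1 and MYLK were singled out after their values were seen. Alternatives covered centring, scaling, a dye term, missing values, joint fits of the 15 arrays, the replicate number as a block, probe handling, symbols, thresholds, a SAM-type test, apparent dye swaps, direction and each array left out.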

Additional observations from a re-analysis of the deposited data

Results flagged for a closer look

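Sets of 5 arrays (53 genes in 3 pairs, 159 sets) were searched for an array apart from the others. Its distance from the nearest other array was divided by the range of the 5. In 9 sets this share exceeded Dixon's critical value, near the about 1 in 20 that chance gives. In P114 against CMT-U335, replicate 2 of EIF1B was at 0.086, with the others between -1.22 and -0.88. Replicate 5 of that pair stood below the rest for EIF2B4 (-0.44, others from 0.26 to 0.45), EIF2S3 (-0.70, others from -0.10 to 0.07), EIF3G (-0.45, others from -0.01 to 0.09) and EIF4H (-6.93, others from -0.26 to 1.89). Replicate 5 of EIF4EBP2 in P114 against CMT-U229 was at 0.52 (others from -0.12 to 0.04), in the same pair replicate 3 of EIF4ENIF1 was at -3.54 (others from -0.24 to 1.00) and replicate 4 of EIF5A2 at 0.48 (others from -0.18 to -0.04). Replicate 2 of EIF2B4 in CMT-U229 against CMT-U335 was at -0.11 (others from 0.08 to 0.09).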

How the results depend on the processing

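The count of genes called in P114 against CMT-U335 (15) became 4 at a threshold of 0.01, 6 with couples of arrays averaged (no clear dye swaps in this pair) and 6 to 11 with an array left out, and it rose to 20 in a loop fit and to 18 at a threshold of 0.10 and with a SAM-type test. For P114 against CMT-U229 (1) it became 5 in a fit over all 15 arrays, 8 in a loop fit, 4 with the replicate number as a block, 3 at a threshold of 0.10, 2 with a SAM-type test, 2 with each probe by itself and 0 with apparent dye swaps averaged, and it stayed at 1 without any single array. For CMT-U229 against CMT-U335 (9) it became 16 in a loop fit, 5 at a threshold of 0.01, 5 with apparent dye swaps averaged and 5 to 8 with an array left out. The cause of these shifts was not tested. Same-numbered arrays of different pairs correlated between -0.25 and 0.33. Arrays with different numbers were not compared in this way, so whether the numbers pair arrays was not tested. The replicate number as a block gave 13 and 10 calls in the pairs with CMT-U335. With the ratio read as Cy3 over Cy5, the median of P114 against CMT-U335 turned from -0.067 to 0.067, and so did every sign by construction. Kept under every other setting were 4 calls of P114 against CMT-U335 (EEF1A1, EIF2B3, EIF3F and TARS1), 0 of P114 against CMT-U229 and 5 of CMT-U229 against CMT-U335 (EIF3A, EIF3F, EIF4A2, EPRS1 and TARS1). For this, with each probe by itself, only the probe farthest from the gene's mean was judged. Another EIF3F probe was not called in P114 against CMT-U335 (0.64, limma adjusted p = 0.136 over probes). The conservative loop test called 0 of the 53 genes under each setting tried, and had 1 at an unadjusted p under 0.05 without replicate 5 of P114 against CMT-U335 and 0 otherwise. Ratios alone were used, so dim probes could not be told from bright ones.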
